A study of Mus musculus with 2 samples.

Results

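Bone sialoproteins and mineralisation genes are the secreted proteins and enzymes that decide where calcium phosphate crystals form in bone and calcified cartilage. The 10 genes described here were chosen by symbol from the rows of the count table, whatever their values, and all 10 were among its 21983 rows. They are Spp1, Ibsp, Dmp1 and Mepe of the SIBLING family (small integrin-binding ligand, N-linked glycoproteins), the phosphatase genes Alpl and Phospho1, the pyrophosphate genes Enpp1 and Ank, and the Gla protein genes Bglap and Mgp. RNA was sequenced from wild-type primary mouse chondrocytes, the cells that make cartilage, grown in serum-containing medium. The treated culture was given Sparcl1, as recombinant mouse protein at 50 ng/ml for 3 days, and the control culture phosphate-buffered saline (PBS) for the same 3 days. The age and number of the animals are not given in the sources used here, and each condition had 1 library, so no difference below has a replicate check and no test across cultures was possible.

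Mineral growth begins in vesicles that bud from hypertrophic chondrocytes and osteoblasts. PHOSPHO1 frees phosphate inside the vesicle, and tissue-nonspecific alkaline phosphatase, the product of Alpl, destroys inorganic pyrophosphate outside it. Pyrophosphate blocks crystal growth. ENPP1 makes it from nucleotides, and the membrane protein ANK supports its release from cells. SIBLING proteins are acidic phosphoproteins that bind hydroxyapatite and, through an RGD sequence, integrins, while the Gla proteins bind calcium through residues modified with the help of vitamin K. Mgp is a strong inhibitor of calcification in cartilage and arteries.

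All 4 SIBLING members lie in tandem on mouse chromosome 5, beside Sparcl1, the gene of the protein that was added. Their promoter windows are printed here because Spp1 and Ibsp differed in direction in the values that follow. For Dmp1 no difference was detectable, and Mepe had too few counts for a ratio. A link from these sequences to the levels was not tested. Each window runs from 250 bases before to 50 bases after a RefSeq transcription start in assembly GRCm38.p6, on the plus strand. The windows are chr5:104434861-104435160 for Spp1, chr5:104299037-104299336 for Ibsp, chr5:104202367-104202666 for Dmp1 and chr5:104325079-104325378 for Mepe. Capitals mark 4 short motifs on either strand: AACCACA, a word bound by RUNX factors, CCAAT, and the TATA-like words TTTAAA and TATAAA.
Spp1: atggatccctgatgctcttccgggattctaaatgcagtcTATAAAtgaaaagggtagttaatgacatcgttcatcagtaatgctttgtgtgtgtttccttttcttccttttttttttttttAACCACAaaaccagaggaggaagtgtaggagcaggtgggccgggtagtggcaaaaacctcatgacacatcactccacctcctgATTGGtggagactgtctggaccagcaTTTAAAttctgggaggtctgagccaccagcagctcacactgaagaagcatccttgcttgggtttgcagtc
Ibsp: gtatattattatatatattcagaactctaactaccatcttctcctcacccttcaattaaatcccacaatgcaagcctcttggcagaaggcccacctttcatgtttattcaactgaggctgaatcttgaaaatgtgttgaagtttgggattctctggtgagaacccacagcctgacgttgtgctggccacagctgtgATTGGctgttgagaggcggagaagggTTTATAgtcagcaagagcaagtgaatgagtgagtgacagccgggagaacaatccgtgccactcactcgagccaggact
Dmp1: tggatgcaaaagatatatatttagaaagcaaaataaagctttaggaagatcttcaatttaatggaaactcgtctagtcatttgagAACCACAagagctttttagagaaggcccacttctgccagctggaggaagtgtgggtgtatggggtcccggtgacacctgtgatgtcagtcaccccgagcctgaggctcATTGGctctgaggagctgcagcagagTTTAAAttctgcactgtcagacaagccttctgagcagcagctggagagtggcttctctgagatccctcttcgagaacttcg
Mepe: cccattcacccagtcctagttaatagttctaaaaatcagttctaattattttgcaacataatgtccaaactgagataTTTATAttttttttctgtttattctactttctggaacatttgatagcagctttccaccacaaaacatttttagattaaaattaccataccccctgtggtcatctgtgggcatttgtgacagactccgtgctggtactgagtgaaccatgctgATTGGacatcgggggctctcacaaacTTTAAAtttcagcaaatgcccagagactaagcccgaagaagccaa
The CCAAT word stood on the minus strand, printed as ATTGG, in all 4 windows, with its first printed base at -46 in Spp1, -54 in Ibsp, -57 in Dmp1 and -21 in Mepe relative to the start site. This word is common, and 38.8% of 16522 protein-coding gene windows of the same length held it. The RUNX word AACCACA, found in 4.79% of windows, was present in Spp1 (-129) and Dmp1 (-165). The shorter ACCACA within it, and its other-strand form TGTGGT, also stand unmarked in the Mepe window. How many windows hold the shorter word was not counted. TTTAAA, in 11.7% of windows, was found in Spp1 (-20), Dmp1 (-31) and Mepe (6), and TATAAA, in 12.9%, in Spp1 (-211), Ibsp (-28) and Mepe (-173). Among the other members, a window was found for all except Mgp; CCAAT was also present in Phospho1 (-40) and Bglap (-90), and TATAAA in Bglap (-27). The motifs were chosen with the sequences in view, and a match describes letters only.

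The Sparcl1-treated library held 26871933 gene counts and the control library 29858851, with at least 1 count for 15407 and 15497 genes. Chondrocyte markers summed to 11727 CPM in the Sparcl1-treated and 13380 CPM in the control library (CPM is counts at a common library size). The cartilage collagen gene Col2a1 led them at 7332 and 8629 CPM, followed by Comp at 2967 and 2909 CPM. Matn1, Matn3 and Chad were low, at no more than 4.07 CPM in either library. The hypertrophic collagen gene Col10a1 had 478 and 501 counts, but the hypertrophic signal gene Ihh had only 3 and 1 counts. All 12 macrophage markers were present, with a summed level of 2764 CPM in the Sparcl1-treated and 2459 CPM in the control library. Osteoclast markers summed to 91.9 and 89.9 CPM, of which Ctsk alone made up 82.2 and 80.7 CPM, with Calcr at 0 in both. Osteoblast and osteocyte markers summed to 6433 and 8388 CPM. Of that last sum Col1a1, a collagen gene that fibroblasts also express, made up 6309 and 8206 CPM. Omd was at 97.1 CPM in the Sparcl1-treated and 150 CPM in the control library. In the same order, Dlx5 was at 15.7 and 19.1 CPM and Sp7 at 10.0 and 12.3 CPM. Bglap2, Ifitm5, Sost and Phex had at most 20 counts in either library, and Pdpn was listed at 0 in both. Fibroblast and tendon markers summed to 5989 CPM in the Sparcl1-treated and 6598 CPM in the control library, and smooth muscle and vascular markers to 797 and 1214 CPM. To the latter sums Acta2 gave 529 and 832 CPM and Tagln 247 and 353 CPM, while Myh11, Pecam1, Cdh5 and Tek had at most 16 counts in either library. In such bulk libraries fewer cells of a type and less RNA per cell cannot be told apart.

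Among the members, Spp1 was by far the most abundant transcript and had the higher level in the Sparcl1-treated library, whereas Ibsp and Alpl had lower levels there. Enpp1, Ank and Mgp differed by at most 1.12-fold. The remaining 4 genes, Dmp1, Mepe, Phospho1 and Bglap, had low listed counts in both libraries. A gene was called higher or lower when it had at least 20 summed counts, a log2 ratio (Sparcl1-treated over control) of at least 1 in size and an exact 95% counting interval that excluded 0. By this rule of size Phospho1 was the 1 member called higher, against 0.954% of 13317 genes with at least 20 summed counts, and 0 members were called lower, against 0.946%.

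**Figure D1:**
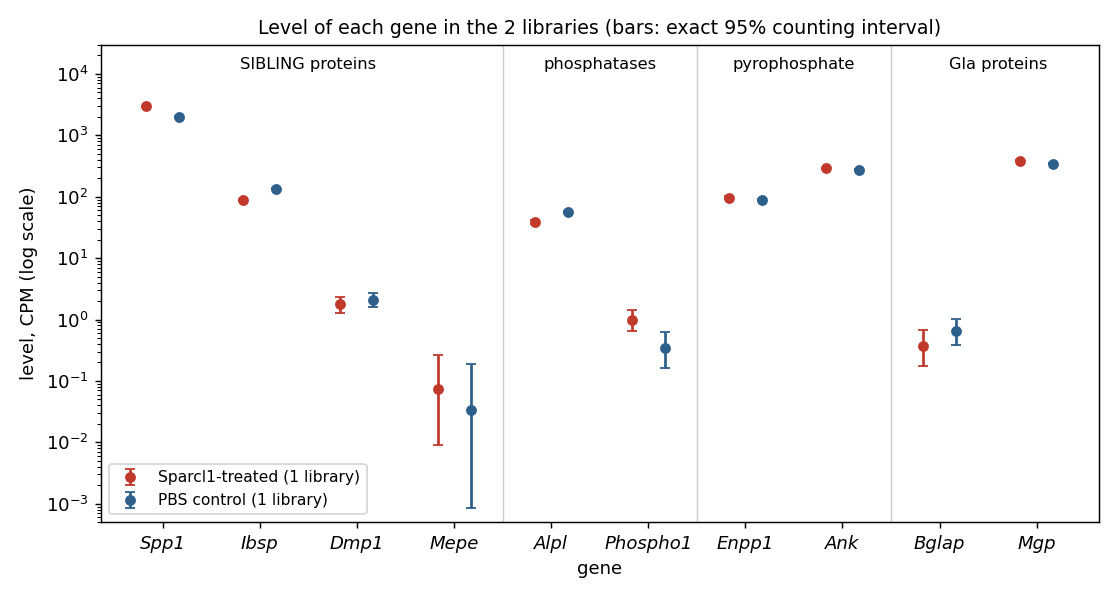
Level of each member in CPM on a log axis, with the Sparcl1-treated library (red) left of the PBS control library (blue); bars are exact 95% counting intervals and do not cover variation between cultures. Spp1 stands at 2963 and 2014 CPM, while Dmp1, Mepe, Phospho1 and Bglap lie below 3 CPM in both libraries.

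Spp1 encodes osteopontin, a SIBLING protein made by bone cells, hypertrophic chondrocytes and also macrophages, which slows crystal growth and binds integrins and CD44. It had 80589 counts in the Sparcl1-treated library and 59409 in the control library, or 2963 and 2014 CPM. The ratio was 1.47-fold, a log2 ratio of 0.56 with a 95% counting interval of 0.54 to 0.57. Spp1 ranked 20th among all genes by count in the Sparcl1-treated and 33rd in the control library. Of 11194 genes with at least 200 summed counts, 1.11% had a log2 ratio at least as high, although the ratio did not reach the size that the rule asks for. In the GRCm38 assembly Spp1 spans 104435118 to 104441050 on chromosome 5 (GENCODE M21, ENSMUSG00000029304.14).

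Since osteopontin is also a macrophage product, the macrophage markers were set beside it. Of the 12 markers, 6 had log2 ratios above 0 and 6 below, with a median of 0.01, and their summed level differed by a log2 of 0.17. The lysozyme gene Lyz2, the most abundant, was at 0.31, the integrin gene Itgam at 0.45 and the receptor gene Csf1r at -0.05. On the lower side, the Fc receptor gene Fcgr1 was at -0.61 (-0.87 to -0.35), the largest ratio in size among the 12, and the leukocyte gene Ptprc at -0.19 (-0.28 to -0.10). Osteoclast markers had 3 ratios above 0 and 3 below among the 6 with at least 20 summed counts. The part of these cells in the Spp1 difference was not tested.

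Ibsp encodes bone sialoprotein, which can seed hydroxyapatite and marks osteoblasts and the latest hypertrophic chondrocytes. It had 2399 counts (88.2 CPM) in the Sparcl1-treated library, against 4008 (136 CPM) in the control. The level was 1.54-fold lower with Sparcl1, a log2 ratio of -0.62 (-0.70 to -0.55), and 0.875% of genes with at least 200 summed counts had a ratio as low. The gene lies at 104299171 to 104311469, with its end 124 kb before Spp1.

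The contrast between Spp1 and Ibsp does not depend on how the libraries were scaled. There were 33.6 Spp1 counts for each Ibsp count in the Sparcl1-treated library and 14.8 in the control library. The log2 ratios therefore differed by 1.18 (exact conditional 95% interval 1.11 to 1.26, counting error only). This pair was chosen with earlier results of these data known, and the interval does not allow for that choice. Dmp1, a SIBLING protein of osteocytes and odontoblasts, had 48 counts in the Sparcl1-treated and 62 in the control library, at 1.76 and 2.10 CPM. Its log2 ratio of -0.25 had an interval from -0.83 to 0.31, so no difference was detectable at this depth. Mepe, an osteocyte gene whose product is linked to phosphate handling, had 2 and 1 counts, too few for a ratio. Dspp, the fifth SIBLING gene and no member here, was listed at 0 in both libraries, where 3 counts would be 0.110 and 0.102 CPM.

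**Figure D2:**
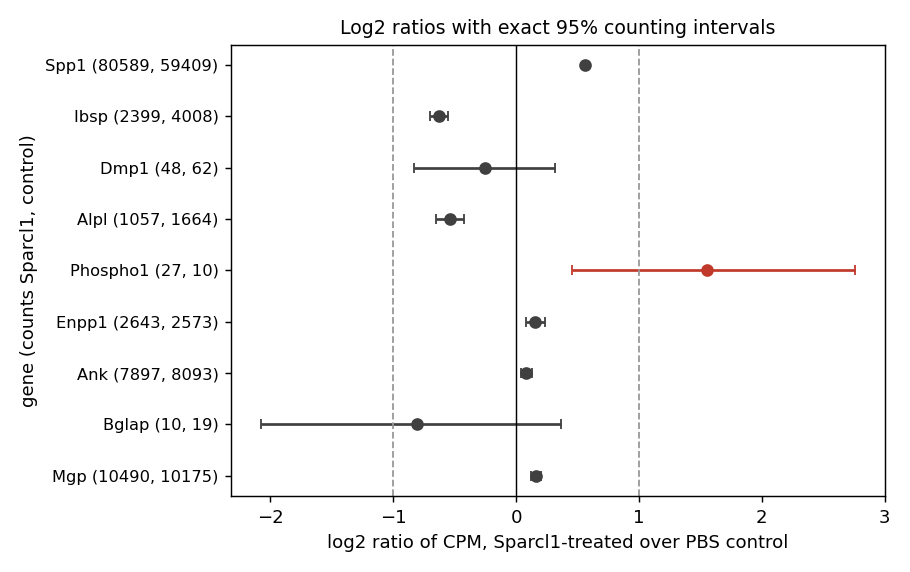
Log2 ratio of CPM (Sparcl1-treated over PBS control) for the 9 members with at least 20 summed counts, with exact 95% counting intervals; the counts of the Sparcl1-treated and then the control library stand beside each name, and dashed lines mark a log2 of 1 in size. Spp1 at 0.56 and Ibsp at -0.62 lie on opposite sides of 0, and Phospho1 (red), the 1 member past the rule of size, has an interval from 0.46 to 2.76.

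Of the phosphatases, Alpl is required for normal bone and cartilage mineral because it clears pyrophosphate. It had 1057 counts in the Sparcl1-treated library, against 1664 in the control library, or 38.9 and 56.4 CPM. The log2 ratio was -0.54 (-0.65 to -0.43), 1.45-fold lower with Sparcl1, and 1.29% of genes with at least 200 summed counts had a ratio as low. Alpl and Ibsp thus stood on the same side, as did most markers of some cell types but not of others. Among all genes with at least 20 summed counts, 50.4% had ratios below 0. Of the osteoblast and osteocyte markers with at least 20 summed counts, 5 of 5 had ratios below 0, with a median of -0.38. Chondrocyte markers had 9 of 10 below 0, with a median of -0.35. The proteoglycan gene Acan was at -0.50, Col2a1 and Sox9 at -0.24, and Chad, with 61 and 120 counts, at -0.86. The 1 marker above 0 was Comp at 0.03 (0.01 to 0.04), with 80709 counts in the Sparcl1-treated and 85813 in the control library. Smooth muscle and vascular markers had 5 of 5 below 0, with a median of -0.43, but the intervals of Myh11 (-1.22 to 1.05) and Kdr (-1.07 to 0.20) held 0. Hypertrophic markers had 3 of 5 below 0, with a median of -0.10. Those below were Panx3 at -0.68 (-0.89 to -0.47), Pth1r at -0.14 (-0.30 to 0.01) and Runx2 at -0.10. Col10a1 was at 0.05 and Mmp13 at 0.00. Fibroblast and tendon markers had 5 of 8 above 0 and 3 below, with a median of 0.03. Of these Tnmd was called lower at -1.01 (-1.54 to -0.51), a call made for 0.946% of all genes with at least 20 summed counts. Among the osteoblast markers the bone collagen gene Col1a1 was at -0.38 and the proteoglycan gene Omd at -0.62. Of the other osteoblast and osteocyte markers, Pdpn was listed at 0 in both libraries, Sost and Ifitm5 had at most 2 counts and Phex had 3 and 13. The part of any of these cell types in the Ibsp and Alpl differences was not tested.

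Phospho1 had 27 counts in the Sparcl1-treated library and 10 in the control library (0.993 and 0.339 CPM). The log2 ratio was 1.55, with a wide interval of 0.46 to 2.76. Of all 1407 genes with 20 to 99 summed counts, 7.60% were called higher by the same rule. The gene is also hard to count: on chromosome 11, at 95824499 to 95832140, 84.2% of its exon bases lie opposite exons of Abi3 and 89.6% lie under exons of a long Zfp652 transcript on the same strand. Only 211 of its 2029 exon bases, or 10.4%, are outside both genes. Abi3, an adaptor gene of blood cells, had 126 and 173 counts (-0.34), and the zinc finger gene Zfp652 had 1788 and 2219 (-0.19). These counts cover each whole gene and do not single out the bases shared with Phospho1. Which bases gave the Phospho1 counts was not tested. Whether the counting used strand, and which gene models it used, is not given in the sources used here.

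Enpp1, the pyrophosphate-producing ectoenzyme, had 2643 counts in the Sparcl1-treated library and 2573 in the control library, or 97.2 and 87.2 CPM. Its log2 ratio was 0.16 (0.08 to 0.23), and a value at least as high was found for 18.8% of genes with at least 200 summed counts. Ank had 7897 counts (290 CPM) in the Sparcl1-treated and 8093 (274 CPM) in the control library. Its log2 ratio was 0.08 (0.04 to 0.13), a value that 31.1% of such genes reached. Both genes therefore lay well within the central 95% of genes, which ran from -0.42 to 0.42.

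Alpl was also set against each pyrophosphate gene within a library. In the Sparcl1-treated library there were 0.400 Alpl counts per Enpp1 count, against 0.647 in the control library, a log2 difference of -0.69 (exact 95% interval -0.83 to -0.56). Per Ank count there were 0.134 Alpl counts in the Sparcl1-treated and 0.206 in the control library, a difference of -0.62 (-0.74 to -0.50). These pairs were formed after the values were seen, and they restate the lower Alpl value on a scale free of library size.

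Mgp, the matrix Gla protein gene, was the second most abundant member, with 10490 counts (386 CPM) in the Sparcl1-treated library and 10175 (345 CPM) in the control library. Its log2 ratio was 0.16 (0.12 to 0.20), reached by 18.2% of genes with at least 200 summed counts. Bglap encodes osteocalcin, a Gla protein of mature osteoblasts, and had 10 counts in the Sparcl1-treated and 19 in the control library. The log2 ratio of -0.81 had an interval of -2.08 to 0.37, so it was not distinguishable from equality. Its near copy Bglap2 had 13 and 20 counts, and Bglap3 was listed at 0. Of 50-base windows in the Bglap transcript, 74.7% also occur in Bglap2 or Bglap3, so reads could be split or lost between copies. Summed over the 3 genes there were 23 counts in the Sparcl1-treated and 39 in the control library, with a log2 ratio of -0.64 (-1.46 to 0.13). For Ibsp, Dmp1, Mepe, Alpl, Enpp1, Ank and Mgp none of these windows occurs in another gene, and for Spp1 9.05% do, all in Gm42793, an annotated transcript that overlaps its 5′ end.

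As a group the members showed no common direction. Of the 9 with at least 20 summed counts, 5 had log2 ratios above 0 and 4 below, close to the 49.6% above and 50.4% below 0 among all such genes. The median was 0.08, against 0.00 over all genes. Intervals excluded 0 on the higher side for 5 members (20.1% of all genes did so) and on the lower side for 2 (21.6% of all genes). For abundant genes this asks little, since 24.2% and 27.2% of genes with at least 1000 summed counts had intervals wholly above or below 0. At 1.5-fold in place of 2-fold, Phospho1 was higher and Ibsp lower, against 2.32% and 2.35% of all genes.

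**Figure D3:**
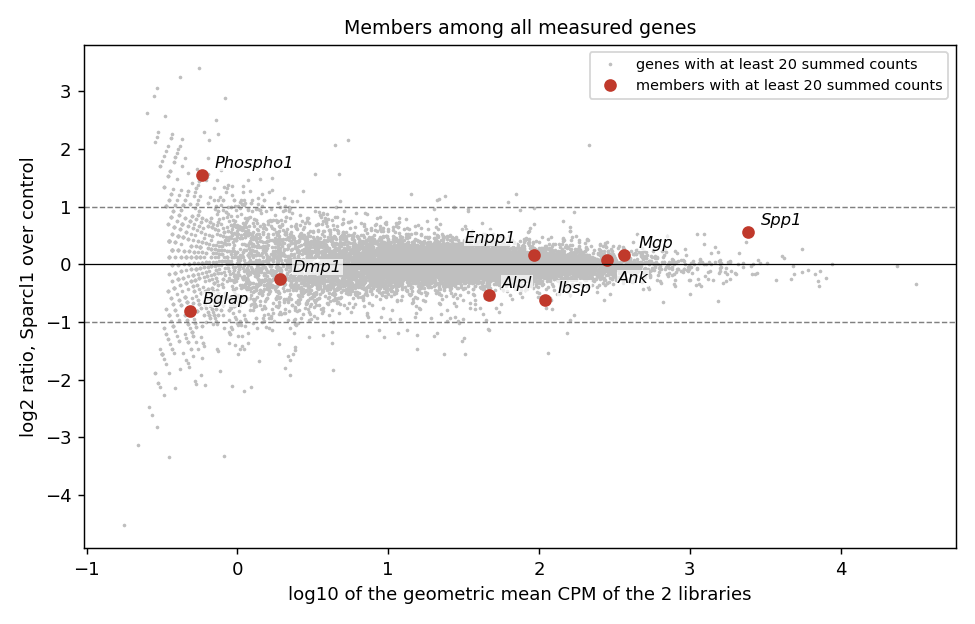
Log2 ratio (Sparcl1-treated over control) against the log10 of the geometric mean CPM of the libraries, for all genes with at least 20 summed counts (grey) and the 9 members among them (red); dashed lines mark a log2 of 1 in size. Spp1, Ibsp and Alpl lie at the edge of the grey cloud at their abundance, Enpp1, Ank and Mgp inside it, and Phospho1 and Bglap where low counts spread the ratios widely.

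Compared per kilobase of exon, which allows levels of different genes to be set side by side, the order was led by Spp1 at 1798 CPM per kb in the Sparcl1-treated and 1222 CPM per kb in the control library. Mgp followed at 325 and 291, Ank at 80.4 and 76.0, and Ibsp at 42.7 and 65.7 CPM per kb. With the longest transcript as length in place of all exons, Mgp was at 539 CPM per kb in the Sparcl1-treated and 482 CPM per kb in the control library. Below Ibsp, again with all exons as length, came Alpl at 9.64 and 14.0 and Enpp1 at 9.47 and 8.50 CPM per kb. Counting intervals of Alpl and Enpp1 overlapped in the Sparcl1-treated library (9.06 to 10.2 and 9.12 to 9.84) but not in the control library (13.3 to 14.7 and 8.18 to 8.84). Dmp1, Bglap and Phospho1 were between 0.167 and 1.04 CPM per kb in both libraries, and Mepe was at 0.0437 and 0.0202. The Phospho1 value divides by all 2029 exon bases, of which 211 lie outside overlapping genes. Spp1 supplied 76.6% of all member counts in the Sparcl1-treated and 69.1% in the control library. Without it, the other 9 members summed to almost equal levels, 903 CPM in the Sparcl1-treated and 902 CPM in the control library.

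The genes around Spp1 were compared with it by position. From 500 kb before Sparcl1 to 500 kb after Spp1 the table held 19 protein-coding genes, 13 of them with at least 20 summed counts, and 0 were called higher or lower. Of these 13 ratios 10 were below 0, with a median of -0.23, and Spp1 was the 1 gene whose interval lay wholly above 0. For 7 of the 13 the interval lay wholly below 0, against 21.6% of all genes. Sparcl1 itself, at 104079111 to 104113733 and transcribed in the opposite direction, had 208 counts in the Sparcl1-treated and 289 in the control library, a log2 ratio of -0.36 (-0.62 to -0.10). Pkd2, a polycystin channel gene that starts 18.4 kb after Spp1, had 11588 and 12701 counts and stood at -0.02 (-0.05 to 0.02). Hsd17b11 and Nudt9, just before Sparcl1, were at 0.00 and -0.01. Farther out, Aff1 was at -0.19 (-0.25 to -0.14), Ptpn13 at -0.23 (-0.34 to -0.11) and Klhl8 at -0.31 (-0.58 to -0.04). Beyond Pkd2, BC005561 was at -0.34 (-0.64 to -0.04) and Zfp951 at -0.71 (-1.31 to -0.13). Slc10a6 was at 1.05 from 21 and 11 counts, with an interval of -0.07 to 2.25. The other 6 genes of the window, Mepe and Dspp among them, had fewer than 20 summed counts. They included Abcg3 with 4 and 12 counts, 1700016H13Rik with 0 and 5, Hsd17b13 with 2 and 2, and Gm17660 at 0 in both.

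**Figure D4:**
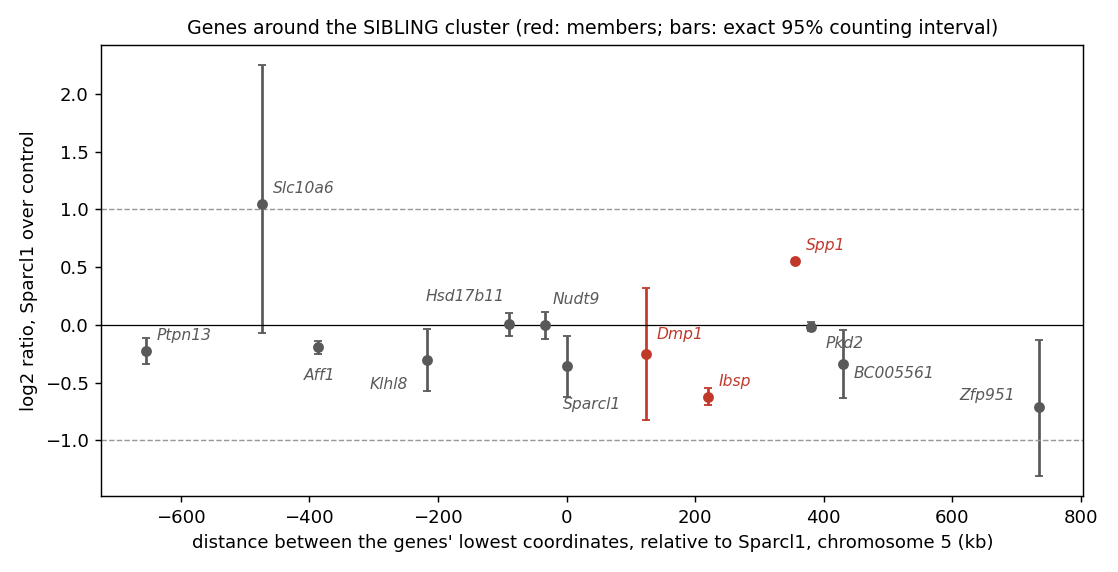
Log2 ratio (Sparcl1-treated over control) of the 13 protein-coding genes with at least 20 summed counts around the SIBLING cluster, by distance from Sparcl1 in kb (lowest coordinate of each gene); red marks members, bars are exact 95% counting intervals and dashed lines a log2 of 1 in size. Spp1 at 0.56 stands above its neighbours Ibsp at -0.62 and Pkd2 at -0.02.

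Related genes of the same processes were followed in 7 lists. Over all genes with at least 20 summed counts, 0.954% were called higher and 0.946% lower, and 49.6% of ratios were above and 50.4% below 0. Of the 13 genes for phosphatases, pyrophosphate and phosphate supply, 1 was called higher (Phospho1, the call already given among the members) and 0 lower. The list had 9 ratios above 0 and a median of 0.08. Beside the members, the inorganic pyrophosphatase gene Ppa1 was at 0.17 (0.04 to 0.29) and Smpd3, a sphingomyelinase needed for normal skeletal mineral, at -0.24 (-0.52 to 0.04). The phosphate transporter genes Slc20a1 and Slc20a2 were at -0.04 and 0.08. Among the 8 Gla protein and vitamin K cycle genes 0 were called, and the median of the 6 with at least 20 summed counts was -0.20. Gas6, a Gla-containing growth factor, was at -0.34 and the epoxide reductase gene Vkorc1l1 at -0.07. Ggcx, the carboxylase that makes Gla residues in most cells, was listed with only 1 and 0 counts. Very low counts are therefore given here as listed, without reading them as silence.

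Genes that process SIBLING proteins or act in phosphate hormone signalling had 0 calls among the 6 with at least 20 summed counts, and a median of 0.03. Vdr, the vitamin D receptor gene, had 463 counts in the Sparcl1-treated and 350 in the control library, the highest ratio of this list at 0.52 (0.32 to 0.73). Pcsk5 was at 0.11, Fam20a at -0.10 and Fgfr1 at -0.09, and Fam20c, the kinase that phosphorylates SIBLING proteins, was at 0.06 (-0.05 to 0.17). Phex, a protease that acts on SIBLING peptides, had 3 and 13 counts, below the count minimum.

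Receptor genes of osteopontin were followed beside it. Of 10 genes 0 were called, 4 had ratios above 0, and the median was -0.07. Cd44 had 14500 counts in the Sparcl1-treated and 13453 in the control library, at 0.23 (0.19 to 0.26), and Itgb3 was at 0.20 (-0.13 to 0.52). Lower ratios were seen for Itga9 at -0.37 (-0.64 to -0.10) and Itga4 at -0.22 (-0.40 to -0.04). Itgav, which encodes the alpha chain of the main osteopontin integrins, was at -0.07.

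The list of osteogenic transcription factors had 8 of 10 ratios below 0 and a median of -0.19, where 50.4% of all genes with at least 20 summed counts had ratios below 0. A link from these factors to the levels of the members was not tested. Dlx6 was the 1 gene called lower, with 12 counts in the Sparcl1-treated and 36 in the control library, a log2 ratio of -1.47 (-2.55 to -0.49), and 0 were called higher. Of genes with 20 to 99 summed counts, 6.25% were called lower, and with a minimum of 100 summed counts Dlx6 would not be called. Sp7, the osterix gene, was at -0.30 (-0.54 to -0.07). Runx2 itself was at -0.10 (-0.21 to 0.00), Atf4 at -0.06 and Msx2 at 0.37 (-0.18 to 0.93). The list of other mineralised-matrix and matrix vesicle genes had 10 of 11 ratios below 0, a median of -0.30 and 0 calls. Panx3, a channel gene of hypertrophic cartilage and osteoblasts, was at -0.68 (-0.89 to -0.47), and the proteoglycan gene Ogn at -0.63 (-0.65 to -0.61). The annexin genes of matrix vesicles were near equality, with Anxa2 at 0.06 and Anxa5 at -0.01. Of the 5 genes on the SIBLING list 0 were called, and the 3 with at least 20 summed counts had a median of -0.25, the value of Dmp1.

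**Figure D5:**
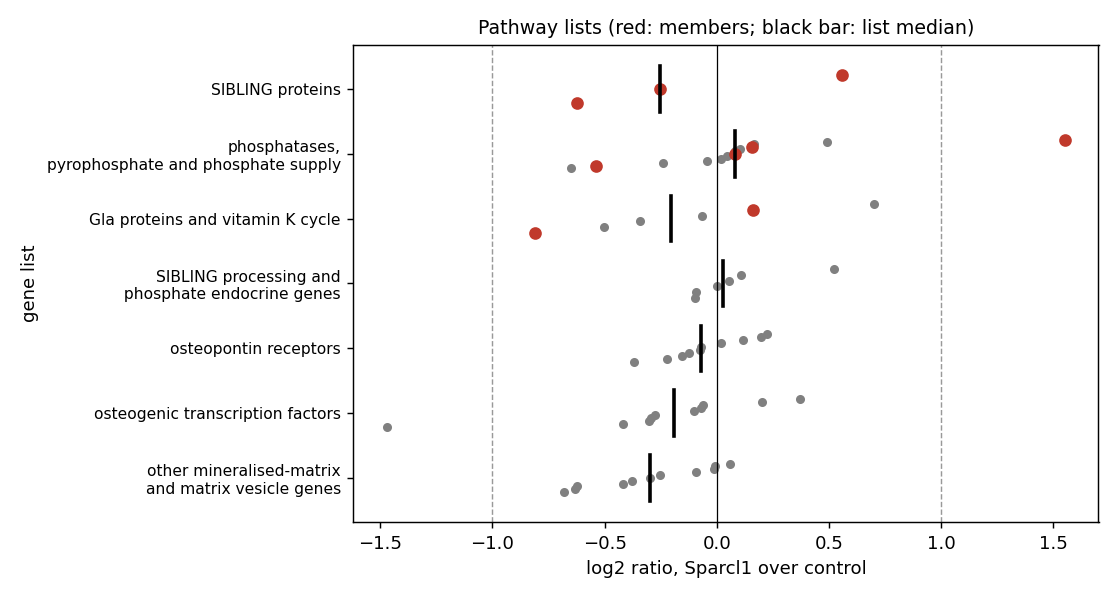
Log2 ratio (Sparcl1-treated over control) of each gene with at least 20 summed counts in the 7 lists (red: members; black bar: list median; dashed lines: a log2 of 1 in size). The list medians lie between -0.30 and 0.08, and Phospho1 at 1.55 and Dlx6 at -1.47 are the genes beyond the dashed lines.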

How the data were processed

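RNA from 2 cultures was sequenced, 1 library per condition. The authors deposited whole-number counts of reads per gene symbol, with columns matched to libraries by title. The tools were Trimmomatic, HTSeq, STAR and FastQC with build mm10, per the submitters' processing notes; versions, gene models and the strand setting are not given in the sources used here.

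Counts were scaled to CPM by TMM factors (edgeR 4.0.16, R 4.3.3); the rest used Python 3.11.15, numpy 2.4.6, scipy 1.17.1, pandas 2.3.3 and matplotlib 3.10.9. Log2 ratios have exact Clopper-Pearson 95% intervals on the Sparcl1-treated part of each gene's counts, and levels have exact Poisson intervals. Both cover counting error only, and reads amplified without molecular identifiers are not independent molecules. A count of 0 entered a ratio as 3 counts, and no ratio is given where both libraries had 3 or fewer. The ratios, their intervals and the rule of size were checked on simulated counts that held counting error only. Scaling, variation between cultures and the other steps were not part of that check. Symbols were matched to GENCODE M21 (GRCm38, the assembly mm10 names) for 99.6% of rows; CPM per kb uses the union of exons. Promoter sequences are from RefSeq (GRCm38.p6), 1 per gene, nearest the GENCODE start.

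The members, lists and rules were chosen with earlier results of these data known. Named genes are the members, all protein-coding genes of the chromosome 5 window, and from each list the called genes and the 2 highest and 2 lowest ratios with at least 100 summed counts; genes outside this rule (the cell type markers, Abi3, Zfp652, Ggcx, Phex, Fam20c, Itgav, Runx2, Slc20a1 and Slc20a2) were named after their values were seen. Of the genes this rule names, 1 is not reported here. Alternatives tried were size factors of DESeq2 1.42.0, total counts, upper-quartile factors, other count minimums, 1.5-fold, a 99% interval, a prior count of 2 and the longest transcript as gene length.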

Additional observations from a re-analysis of the deposited data

How the results depend on the processing

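No paired analysis was possible because each condition had 1 library. For the same reason no replicate could be left out. Phospho1 was no longer called when at least 100 summed counts were asked for (0 members higher), because its 37 summed counts fell below that minimum. At 1.5-fold, 1 member was lower (Ibsp). Over all genes, 201 were higher without a count minimum beyond 1. Asking for 100 summed counts or more left 20 higher and 38 lower, and at 1.5-fold 309 were higher and 313 lower. Under the 3 other scalings the counts of called members, the 5 ratios above 0 and the sign of every member's ratio were as reported, and the median ran from 0.08 to 0.12. The prior count of 2 kept each sign too and brought Phospho1 to 1.38. Of 36 member ratios under these settings, 35 stayed within the reported counting interval; the exception was Spp1, at 0.59 with total counts as library sizes. Of 20 levels per kb, 10 moved beyond their counting interval with the longest transcript as length, with Alpl then at 15.4 and 22.4 and Enpp1 at 14.3 and 12.9 CPM per kb in the Sparcl1-treated and control libraries. The low counts of Phospho1, Bglap, Dmp1 and Mepe limit what can be seen for them.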
